A study of Homo sapiens with 16 samples.

Results

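A type I and a type III interferon were compared in cells with wild-type receptors. The members are the 4 libraries, of 16 in the series, whose genotype label is wild-type receptors and whose treatment label is IFNw (interferon omega, type I, 2 libraries) or IFNL3 (interferon lambda 3, type III, 2 libraries). All libraries are from HEK293, a human embryonic kidney cell line maintained in Free-style medium. Both ligands were given at 100 nM. The labels state an exposure of 15 min and also a time of 24 hr, and do not say how these relate. Groups used beside the comparison were optimized-receptor cells given IFNw or IFNL3 at the same dose (2 libraries each), wild-type cells given H11, an IFNL3 variant labelled as high-affinity (2 libraries), and untreated wild-type cells (2 libraries). The series asks whether interferon signalling depends on the geometry of the Janus kinases that the receptors hold, and "optimized" is the labels' word for its second receptor genotype. The labels do not say how the receptors were introduced, whether each genotype is 1 clone, or whether the 2 biological replicates of a group were separate cultures, so p-values measure only the spread between these libraries.

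Type I interferons bind the receptor chains IFNAR1 and IFNAR2, which carry the kinases TYK2 and JAK1. Type III interferons bind IFNLR1 (symbol IL28RA in these files) and IL10RB, which carry the same pair of kinases. Both receptors phosphorylate STAT proteins, which join IRF9 to form ISGF3. ISGF3 binds the interferon-stimulated response element (ISRE) before antiviral genes, while STAT dimers bind the GAS element. Epithelial and hepatic cells respond to both interferon types, and type III responses are known to depend strongly on how much IFNLR1 a cell carries.

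Promoter sequences are shown for 6 genes, each of which holds a match to the ISRE letters, unlike many other genes of the comparison. IFI27, ISG15, IFITM3 and B2M were among the genes most raised with IFNw over IFNL3, and IFIT3 did not pass the test. IFIH1 was called lower with IFNw, a call that ended on leaving out any of the 4 libraries. Each line gives the 150 bases before the annotated start, 5′ to 3′ on the gene's strand, from RefSeq on GRCh38.p14, and capitals mark the core letters of the ISRE, which are TTTC, any 2 bases and TTTC, or on the other strand GAAA, any 2 bases and GAAA.
IFI27, chr14:94110586-94110735, + strand: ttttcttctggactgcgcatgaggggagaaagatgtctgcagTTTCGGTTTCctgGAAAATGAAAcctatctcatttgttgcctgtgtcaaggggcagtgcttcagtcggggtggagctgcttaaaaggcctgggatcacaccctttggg
ISG15, chr1:1013347-1013496, + strand: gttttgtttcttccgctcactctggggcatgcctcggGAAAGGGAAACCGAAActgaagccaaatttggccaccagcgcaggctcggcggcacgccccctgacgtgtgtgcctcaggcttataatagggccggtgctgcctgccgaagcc
IFITM3, chr11:320861-321010, - strand: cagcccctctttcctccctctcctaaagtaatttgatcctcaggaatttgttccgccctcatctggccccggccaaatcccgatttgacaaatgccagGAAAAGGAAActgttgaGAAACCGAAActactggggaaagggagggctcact
B2M, chr15:44711367-44711516, + strand: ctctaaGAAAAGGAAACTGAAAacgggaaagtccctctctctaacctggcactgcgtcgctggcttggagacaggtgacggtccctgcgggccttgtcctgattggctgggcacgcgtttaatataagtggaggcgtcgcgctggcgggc
IFIT3, chr10:89327847-89327996, + strand: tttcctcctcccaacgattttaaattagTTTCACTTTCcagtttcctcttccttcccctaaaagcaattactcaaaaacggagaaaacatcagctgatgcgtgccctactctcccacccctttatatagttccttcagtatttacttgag
IFIH1, chr2:162318685-162318834, - strand: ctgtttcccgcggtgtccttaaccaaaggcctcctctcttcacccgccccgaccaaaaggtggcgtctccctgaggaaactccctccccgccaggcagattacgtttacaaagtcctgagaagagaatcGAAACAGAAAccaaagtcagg

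Interferon-response genes here are the tested members of 13 lists, which also hold JAK-STAT regulators, adaptors and chaperones. Some were not called above untreated cells with either ligand. The ISRE letters stood in the 250 bases before the start of 22 of 46 such genes that were higher with IFNw and had a promoter in the table (47.8%). They stood before 5 of 21 that were lower with IFNw (23.8%) and 12 of 33 that did not pass the test (36.4%). Over all 27305 promoters of the table the share was 3.07%. The GAS letters (TTC, any 3 bases and GAA, which reads the same on both strands, searched separately and free to overlap an ISRE match) stood before 6, 3 and 7 genes of these same 3 classes (13%, 14.3% and 21.2%), against 6.78% of all promoters. ISRE letters were absent before PSMB8, PSMB9, OAS1, IFI35 and UBE2L6, all higher with IFNw. They were also absent before DDX58, IRF1, ZC3HAV1, PIAS1, PIAS3, PIAS4, PTPN2, MAVS, CANX and RIPK1, all lower with IFNw. The shares of the classes therefore also depend on which genes the lists hold. A match is a description of letters in this window and not a measured site.

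Totals were 8755108 and 9110723 reads in the IFNw libraries, and 8761603 and 8736786 reads in the IFNL3 libraries. Levels below are CPM, read counts scaled to a common library size (the total times a TMM factor), and levels of different genes are not compared. Library composition also differed between the ligands. The 50 most abundant genes took 28.4% and 27.8% of reads with IFNw and 18.1% and 17.7% with IFNL3 (25.6% and 25.4% in untreated cells), and 14346 and 14355 genes against 15250 and 15241 had a read. Each library's log2 CPM relative to the 16-library mean fell or rose with transcript length across genes, with Spearman's rho of -0.44 and -0.453 in the IFNw libraries, 0.407 in both IFNL3 libraries, and 0.149 and 0.167 in untreated cells. This trend separates the 4 libraries exactly as the ligand does, so its part in any value cannot be told apart from the ligand's. A fit with a length offset, which removes from each library its smooth trend on transcript length, was therefore run as well. Its values are given for many counts and list medians and for some genes. Genes shown without such a value can also move with it. HEK293 markers were present (7 of 10 tested, summed level 524 and 548 CPM with IFNw, 713 and 733 CPM with IFNL3). PTPRC, LYZ, COL1A2, ALB and KRT5, which define blood cells, fibroblasts, hepatocytes and stratified epithelium, had at most 5 reads summed over a group's libraries. The 10 blood cell markers summed to 2.64 and 1.71 CPM with IFNw and 5.99 and 3.68 CPM with IFNL3, and the 8 fibroblast markers to 19.8 and 16.9 CPM with IFNw and 16.5 and 19.4 CPM with IFNL3. Other markers in these lists were expressed and differed between the ligands. CD68, the tested blood cell marker, had 0.974 and 1.31 CPM with IFNw and 4.92 and 2.78 CPM with IFNL3 and was called lower (-1.73 ± 0.43). Of the fibroblast markers COL1A1 had 7.93 and 8.93 CPM and 13.4 and 15.3 CPM and was called lower (-0.77 ± 0.21), and THY1 had 11.3 and 7.88 CPM and 3.04 and 4.04 CPM and was called higher (1.43 ± 0.27). The part of these markers in other results was not tested.

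Of 12704 genes tested, 3290 (25.9%) were called higher and 3458 (27.2%) lower with IFNw than with IFNL3, together 53.1%, at an adjusted p under 0.05 (edgeR's quasi-likelihood test, Benjamini-Hochberg adjustment over all genes tested). Those differing by over 2-fold were 1872 (14.7%) higher and 1504 (11.8%) lower. With the length offset 2776 (21.9%) and 2799 (22%) were called, and 4622 genes were called in the same direction by both fits. The median over all genes tested was a log2 fold change (IFNw over IFNL3) of -0.06. Among 134 interferon-response genes, the tested members of 13 lists, 62 were higher, 26 were lower and 46 did not pass the test, with a median log2 fold change of 0.40. With the length offset 60 were higher and 20 lower (median 0.24). Against untreated cells, 101 of the 134 rose with IFNw, where 31.4% of all genes tested were called (16.6% higher and 14.8% lower). With IFNL3, 84 rose, where 39.7% of all genes tested were called (18.7% higher and 21.1% lower). Those comparisons share the untreated libraries. Of the 134, 79 were called above untreated cells with both ligands, and of these 36 were higher and 18 lower with IFNw in the direct comparison. Another 22 were called above untreated cells with IFNw and not with IFNL3, and all 22 were higher with IFNw in the direct comparison. They include B2M, HLA-B, HLA-C, HLA-E, MICA, PSMB8, PSMB9, PSMB10, PSME1 and PSME2 of the class I pathway. The choice of these 79 and 22 used the IFNw and IFNL3 libraries, so the counts within them are descriptions. With the length offset these classes held 82 genes (38 higher, 15 lower) and 18 genes (17 higher, none lower).

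**Figure D1:**
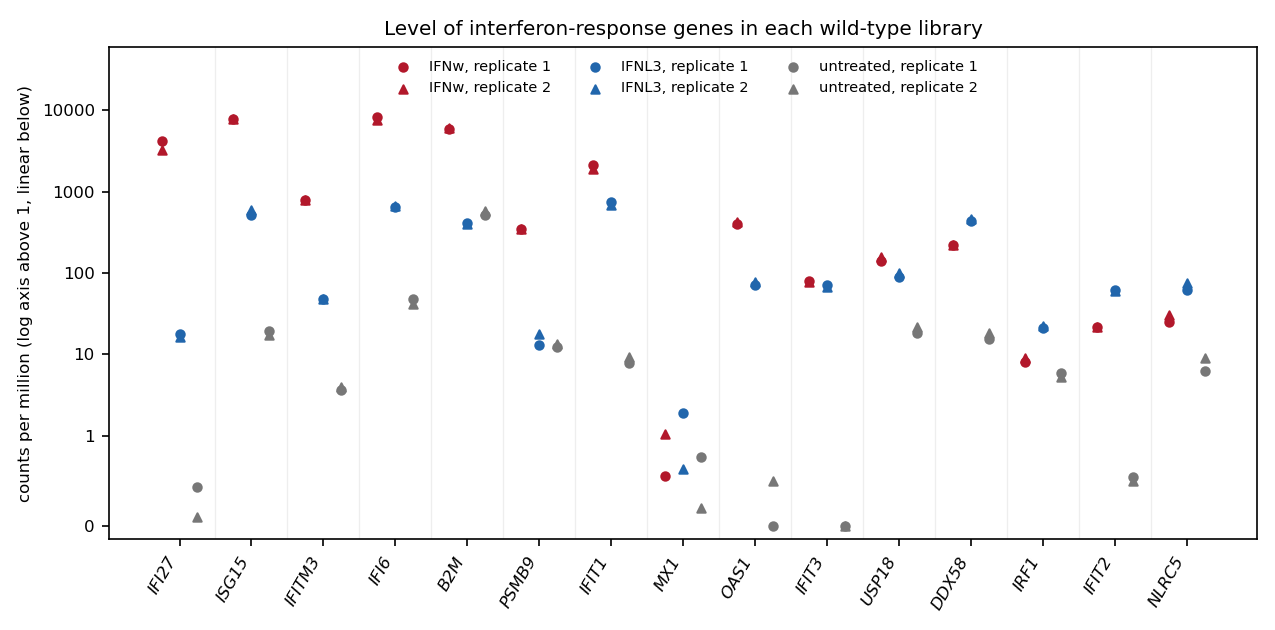
Level in CPM (log axis above 1, linear below) of 15 interferon-response genes in each wild-type library, with IFNw, IFNL3 and untreated cells from left to right within a gene and circles and triangles for replicates 1 and 2. IFI27 had 4200 and 3263 CPM with IFNw and 17.6 and 16.2 CPM with IFNL3, IFIT3 had nearly the same level with both ligands, and IFIT2, IRF1 and NLRC5 were lower with IFNw.

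Of 9 receptor chains and kinases tested, 3 were higher and 2 lower with IFNw, shares near those of all genes tested (25.9% higher and 27.2% lower), with a median log2 fold change of 0.21. IL10RB, the chain that type III and interleukin-10 family receptors share, had 21.4 and 22.9 CPM with IFNw, 11.6 and 11.4 CPM with IFNL3 and 22.6 and 20.6 CPM in untreated cells, a log2 fold change of 0.94 ± 0.17 (adjusted p = 0.00019, 0.55 with the length offset). Its IFNw libraries overlapped the untreated ones, and it fell with IFNL3 against untreated cells by 0.91 on the log2 scale. IFNGR1, the ligand-binding chain of the interferon gamma receptor, had 47.1 and 45.6 CPM with IFNw and 25.5 and 22 CPM with IFNL3 (log2 fold change 0.96 ± 0.15). IFNGR2, its partner chain, had 76.4 and 61.4 CPM against 48.4 and 39.8 CPM (0.64 ± 0.16, adjusted p = 0.0027, but 0.063 with the length offset). The specific chain of the type III receptor, IL28RA, had 3.48 and 3.02 CPM with IFNw and 2.59 and 1.97 CPM with IFNL3, and IFNAR2 had 31 and 33.4 CPM and 25.4 and 30.3 CPM. Neither passed the test, with 95% intervals of the log2 difference of -0.40 to 1.41 and -0.20 to 0.62. TYK2 had 60.4 and 35.5 CPM with IFNw and 44.7 and 48.6 CPM with IFNL3, with an interval of -0.38 to 0.45. JAK1 and IFNAR1 were called lower with IFNw (-1.01 and -0.62). With the length offset JAK1 stood at -0.71 (adjusted p = 0.045), and IFNAR1 stood at -0.17 and was not called (adjusted p = 0.6). Leaving out IFNw replicate 2 or IFNL3 replicate 1 ended the call of JAK1 (adjusted p 0.053 and 0.14), and leaving out any of the 4 libraries ended that of IFNAR1 (adjusted p 0.061 to 0.23).

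Most STAT and IRF genes did not pass the test between the ligands. IRF9, the DNA-binding subunit of ISGF3, had 118 and 116 CPM with IFNw and 106 and 113 CPM with IFNL3 (0.09 ± 0.12, adjusted p = 0.54), and with the length offset it was called lower with IFNw at -0.37. It had 4.88 and 3.99 CPM in untreated cells, below the libraries of either ligand. STAT2 had 84.4 and 89.6 CPM with IFNw and 129 and 133 CPM with IFNL3, a log2 fold change of -0.59 ± 0.13 (adjusted p = 0.00086), and the libraries did not overlap. IRF7, the factor that amplifies type I interferon genes, had 245 and 329 CPM and 193 and 237 CPM and did not pass the test (interval 0.00 to 0.83). With replicate number as a block IRF7 was called higher (0.41, adjusted p = 0.0073), and with the length offset its value was 0.07. IRF1, which drives a partly separate set of antiviral and antigen-presentation genes, had 8.07 and 8.93 CPM with IFNw, 20.9 and 22.2 CPM with IFNL3 and 5.86 and 5.29 CPM in untreated cells. IRF1 was lower with IFNw at a log2 fold change of -1.34 ± 0.19 (adjusted p = 1.7e-05, -1.27 with the length offset). Of the 10 STAT and IRF genes tested, 2 were lower and 1 higher, beside 27.2% and 25.9% of all genes tested. The median of the 10 was 0.15, or -0.01 with the length offset. The higher one, IRF8, had 3.06 and 2.1 CPM with IFNw and 0.358 and 0.808 CPM with IFNL3, and its call ended without IFNw replicate 1 or IFNL3 replicate 1 (adjusted p 0.061 and 0.08).

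Of 12 genes that restrain JAK-STAT signalling 3 were higher and 5 lower, beside 25.9% and 27.2% of all genes tested, with a median log2 fold change of -0.39. USP18, the ISG15 protease that also blocks the type I receptor, had 141 and 156 CPM with IFNw and 88.4 and 99.1 CPM with IFNL3. Its log2 fold change was 0.67 ± 0.13 (adjusted p = 0.00048, 0.36 with the length offset). IFI35, which with its partner NMI modulates innate signalling, had 167 and 194 CPM against 20.5 and 20.8 CPM (3.13 ± 0.17, 2.35 with the offset). NMI followed at 29 and 18.3 CPM and 7.87 and 7.63 CPM (1.60 ± 0.28, 1.02 with the offset). The phosphatase PTPN11 was lower with IFNw, with 71.3 and 61.6 CPM against 169 and 176 CPM (-1.38 ± 0.16, adjusted p = 1.9e-06, -0.93 with the offset). The STAT inhibitor PIAS1 was also lower (-0.68), but with the length offset its value was -0.05 and it was not called. The calls of PTPN2 and PIAS4, also lower, ended without IFNw replicate 2 for PTPN2 (adjusted p 0.054) and without IFNw replicate 1 or IFNL3 replicate 2 for PIAS4 (adjusted p 0.078 and 0.055).

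ISG15, a ubiquitin-like protein that is joined to other proteins during the interferon response, was among the most separated genes. Its level was 7706 and 7856 CPM with IFNw, 521 and 595 CPM with IFNL3 and 19.2 and 17 CPM in untreated cells. The ligands differed 13.9-fold, a log2 fold change of 3.80 ± 0.14 (adjusted p = 5.9e-12, 2.82 with the length offset). Its conjugating enzyme UBE2L6 had 110 and 124 CPM with IFNw and 18.4 and 15 CPM with IFNL3 (2.80 ± 0.16), and its activating enzyme UBA7 had 16.3 and 17.6 CPM and 8.59 and 8.17 CPM (1.02 ± 0.24). With IFNL3, UBE2L6 lay below untreated cells, which had 25.3 and 23.9 CPM. The ligase HERC5 had 61 and 61.1 CPM and 79.1 and 69.7 CPM and did not pass the test (interval -0.58 to 0.01), but was called lower with replicate number as a block (adjusted p = 0.046). TRIM25, a ligase that activates RIG-I, was lower with IFNw, with 69.2 and 66.7 CPM against 138 and 136 CPM (-1.01 ± 0.15, -0.6 with the length offset). Of the 8 genes of this list 6 were higher and 1 lower, beside 25.9% and 27.2% of all genes tested. Their median log2 fold change was 0.84, and 0.79 with the length offset. Among the 6, the call of HERC6 (0.43) ended without IFNw replicate 1 or either IFNL3 library (adjusted p 0.084 to 0.15).

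The IFITM and IFIT families split by member. IFITM proteins sit in membranes and block viral entry, and all 3 tested inducible members were higher with IFNw. IFITM3 had 788 and 782 CPM with IFNw, 48.1 and 48.3 CPM with IFNL3 and 3.58 and 3.99 CPM in untreated cells, a 16.3-fold difference (log2 4.03 ± 0.17, adjusted p = 1.8e-11). IFITM1 had 787 and 789 CPM and 52.9 and 49.1 CPM (3.95 ± 0.15), and IFITM2 had 15.2 and 19.8 CPM and 1.52 and 1.79 CPM (3.39 ± 0.34). Those 3 genes are closely similar in sequence, and the labels do not say how reads were divided between them. IFIT proteins bind viral RNA. IFIT1 had 2134 and 1895 CPM with IFNw and 753 and 692 CPM with IFNL3 (1.48 ± 0.12, adjusted p = 2.5e-08), and IFIT5 had 91.3 and 81.7 CPM and 43.7 and 40.9 CPM (1.03 ± 0.15). IFIT3 had 80.2 and 76.9 CPM with IFNw and 70 and 67.6 CPM with IFNL3, with no read in untreated cells, and did not pass the test (interval -0.08 to 0.46). IFIT2 went the other way, with 21.4 and 21.8 CPM with IFNw and 61.7 and 59.9 CPM with IFNL3, a log2 fold change of -1.49 ± 0.21 (adjusted p = 1.1e-05). IFIT3 and IFIT2 are neighbouring members of one gene cluster, and both rose against untreated cells with each ligand. In the list, 5 of 8 were higher and 1 was lower, beside 25.9% and 27.2% of all genes tested, and the median was 1.26.

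IFI27, a mitochondrial protein of the small family that also holds IFI6, had the largest fold change upward among the genes that the naming rule took. It had 4200 and 3263 CPM with IFNw and 17.6 and 16.2 CPM with IFNL3, while untreated cells had 5 reads in all. The ligands differed 221-fold (log2 7.79 ± 0.21, adjusted p = 8.5e-14), or 6.82 on the log2 scale with the length offset. IFI6 had 8315 and 7577 CPM with IFNw, 647 and 671 CPM with IFNL3 and 47.5 and 42 CPM in untreated cells (log2 fold change 3.59 ± 0.12). IFI44, which restricts several viruses, had 322 and 295 CPM with IFNw and 23.8 and 25.9 CPM with IFNL3 and no read in untreated cells (3.63 ± 0.16), and IFI44L had 37 and 35.2 CPM and 5.54 and 4.58 CPM (2.83 ± 0.19). All 6 genes of this list were called higher, beside 25.9% of all genes tested, with a median log2 fold change of 3.32. The remaining members, IFI27L1 and IFI27L2, were scarce. IFI27L1 had 3.34 and 2.5 CPM with IFNw and 1.61 and 0.179 CPM with IFNL3 (1.69 ± 0.58), and IFI27L2 had 10.9 and 2.76 CPM with IFNw and 1.34 and 0.269 CPM with IFNL3 (3.05 ± 0.66). Their calls did not hold without IFNw replicate 1 (adjusted p 0.11 and 0.059). Without IFNL3 replicate 2 the call of IFI27L1 ended as well (adjusted p 0.2), and without IFNL3 replicate 1 the log2 fold changes were 3.92 for IFI27L1 and 4.58 for IFI27L2.

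The OAS enzymes make the messenger that activates RNase L, and they split by member. OAS1 had 399 and 418 CPM with IFNw and 70.8 and 77.6 CPM with IFNL3 (log2 fold change 2.46 ± 0.17, adjusted p = 3.6e-09), OAS2 had 153 and 140 CPM and 36.7 and 37 CPM (1.99 ± 0.18), and the catalytically inactive OASL had 20 and 18.9 CPM and 2.59 and 3.77 CPM (2.61 ± 0.27). OAS3 was lower with IFNw, with 43.4 and 44.5 CPM against 101 and 113 CPM (-1.28 ± 0.15, -0.77 with the length offset). ZC3HAV1, which targets CpG-rich viral RNA for decay, was lower as well, with 68.9 and 63.7 CPM with IFNw and 192 and 229 CPM with IFNL3 (-1.67 ± 0.18). The kinase PKR (EIF2AK2) had 222 and 223 CPM and 270 and 283 CPM and the exonuclease PNPT1 had 178 and 175 CPM and 172 and 158 CPM, and neither passed the test, though EIF2AK2 was called lower with replicate number as a block (adjusted p = 0.035). OAS3 and ZC3HAV1 have longer transcripts (6719 and 7100 bases) than OAS1 (2416 bases). The list held 3 higher and 4 lower of 11, beside 25.9% and 27.2% of all genes tested, with a median of -0.31, or 0.01 with the length offset. Of the 4 lower genes, ADAR (-0.49) and SLFN5 (-0.80) lost their calls on leaving out any of the 4 libraries (adjusted p 0.05 to 0.16 for ADAR and 0.056 to 0.17 for SLFN5).

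RNA and DNA sensors showed the same kind of split. DDX58 (RIG-I), the sensor of RNA with a 5′ triphosphate, had 222 and 220 CPM with IFNw, 440 and 465 CPM with IFNL3 and 15.4 and 18.4 CPM in untreated cells. It was lower with IFNw at a log2 fold change of -1.03 ± 0.14 (adjusted p = 6.5e-06). DHX58 (LGP2), a regulator of RIG-I and MDA5, had 16.8 and 18.5 CPM with IFNw and 3.4 and 2.33 CPM with IFNL3 (2.62 ± 0.25), and the DNA sensor IFI16 had 34.7 and 31.9 CPM and 8.32 and 8.71 CPM (1.97 ± 0.22). DDX60 was higher with IFNw, at 92.4 and 82.1 CPM against 35.7 and 38.6 CPM (1.23 ± 0.13, 1.68 with the length offset). Its relative DDX60L was lower, at 19.1 and 33.4 CPM against 54 and 67.1 CPM (-1.20 ± 0.22, -0.68 with the offset). IFIH1 (MDA5) had 56.5 and 47.2 CPM and 71.5 and 73 CPM (-0.48). Its call ended on leaving out any of the 4 libraries, and also with the length offset (-0.41, adjusted p = 0.087). Of all genes tested 25.9% were higher and 27.2% lower. Of the 9 sensors 3 were higher and 4 lower (3 and 2 with the length offset), with a median of -0.48. The call of MAVS, an adaptor among the lower ones, ended without IFNw replicate 1 or IFNL3 replicate 2 (adjusted p 0.089 and 0.069).

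Among 27 further antiviral effectors, 14 were higher and 3 lower with IFNw, beside 25.9% and 27.2% of all genes tested. Their median log2 fold change was 0.54 (0.31 with the length offset). Among the 14, the calls of MX2 and SAMHD1 ended without IFNL3 replicate 1 (adjusted p 0.095 and 0.081), and that of MX2 also without IFNw replicate 1 (adjusted p 0.059). LY6E, a membrane protein that blocks coronavirus entry, had 304 and 305 CPM with IFNw, 68.3 and 68.9 CPM with IFNL3 and 60.6 and 67.9 CPM in untreated cells. It differed between the ligands by 2.15 ± 0.16 (adjusted p = 8.8e-09), and with IFNL3 it did not pass the test against untreated cells (log2 0.09 ± 0.16), although it did with the length offset (0.47, adjusted p = 0.036). RSAD2 (viperin), which makes a chain-terminating nucleotide, had 68.6 and 58.1 CPM and 30.1 and 32.8 CPM (1.01 ± 0.18), while its neighbour CMPK2 had 33.5 and 46.6 CPM and 43.6 and 58.6 CPM and did not pass the test (interval -0.77 to 0.07). The scramblase PLSCR1 was higher (0.62), as was the galectin-binding glycoprotein LGALS3BP (0.94). PML, the scaffold of nuclear bodies, had 70.2 and 64.6 CPM with IFNw and 146 and 150 CPM with IFNL3 (-1.14 ± 0.16), and the helicase HELZ2 had 29 and 27.5 CPM and 67.3 and 73.9 CPM (-1.32 ± 0.18). TRIM5 and TRIM22, which recognise viral capsids and viral transcription, had intervals of -0.44 to 0.13 and -0.45 to 0.23. MX1 was near the detection limit in every group, with 0.557 and 1.05 CPM with IFNw and 1.88 and 0.628 CPM with IFNL3. BST2 (tetherin) had 814 and 805 CPM and 478 and 540 CPM and was called higher (0.67), but stood at -0.21 with the length offset and was not called.

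In the list of interferon-induced ADP-ribosyltransferases 4 of 7 genes were lower with IFNw and 1 higher, beside 27.2% and 25.9% of all genes tested. The list's median was -0.56 (-0.36 with the length offset, 3 lower). Among the 4, PARP14 (-0.54) lost its call on leaving out any of the 4 libraries (adjusted p 0.091 to 0.19) and stood at 0.08 with the length offset. PARP9 had 6.54 and 4.47 CPM with IFNw and 14 and 16.7 CPM with IFNL3 (log2 fold change -1.48 ± 0.26), and its partner, the ubiquitin ligase DTX3L, had 76.7 and 72 CPM and 141 and 126 CPM (-0.84 ± 0.15). PARP10 was higher, with 61.1 and 61.5 CPM with IFNw and 10.1 and 12.4 CPM with IFNL3 (2.45 ± 0.17, adjusted p = 2.9e-09).

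Antigen presentation on MHC class I separated the ligands in relation to untreated cells. B2M, the light chain of every class I molecule, had 5908 and 6107 CPM with IFNw, 406 and 401 CPM with IFNL3 and 517 and 573 CPM in untreated cells. The ligands differed 14.9-fold (log2 3.90 ± 0.24, adjusted p = 7.4e-10, 2.99 with the length offset). HLA-B had 881 and 908 CPM with IFNw and 92.8 and 86.4 CPM with IFNL3 (3.32 ± 0.18), against 136 and 133 CPM in untreated cells. Its difference between IFNL3 and untreated cells was -0.58 ± 0.17 (adjusted p = 0.012) and was not called with the length offset (-0.29, adjusted p = 0.17). B2M did not pass the test between IFNL3 and untreated cells (-0.43 ± 0.21, adjusted p = 0.12). HLA-E, a ligand of natural killer receptors, had 178 and 181 CPM and 44.4 and 45.4 CPM (2.0 ± 0.14), and the stress ligand MICA had 63.9 and 61.7 CPM and 24.9 and 19.4 CPM (1.5 ± 0.16). The class I genes share much of their sequence, and the way their reads were assigned is unknown here.

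NLRC5, the transactivator of class I genes, was lower with IFNw while the class I chains were higher. It had 25.2 and 30.2 CPM with IFNw, 60.8 and 74.3 CPM with IFNL3 and 6.19 and 8.98 CPM in untreated cells, a log2 fold change between the ligands of -1.28 ± 0.17 (adjusted p = 7.5e-06, -0.77 with the length offset). Its transcript is 6724 bases long and that of B2M 943 bases. Of the 8 tested genes of the class I list, 6 were higher and 1, NLRC5, was lower, beside 25.9% and 27.2% of all genes tested. The median of the 8 was 2.17.

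The immunoproteasome followed the class I chains. PSMB9, an inducible catalytic subunit that replaces a constitutive one, had 344 and 344 CPM in the IFNw libraries, 13.1 and 17.9 CPM with IFNL3 and 12.4 and 13.2 CPM in untreated cells, a 22.2-fold difference between the ligands (log2 4.47 ± 0.19, adjusted p = 2e-11). PSMB8 had 566 and 617 CPM with IFNw and 52.4 and 62.8 CPM with IFNL3 (3.36 ± 0.13), against 63.6 and 74.3 CPM in untreated cells. With IFNL3 neither PSMB8 nor PSMB9 passed the test against untreated cells (log2 -0.26 ± 0.13 and 0.27 ± 0.19), although PSMB9 did with the length offset (0.67, adjusted p = 0.012). The activator subunit PSME2 had 312 and 327 CPM and 62.6 and 60 CPM (2.38 ± 0.13). TAP1, which pumps peptides into the endoplasmic reticulum, had 340 and 336 CPM with IFNw, 115 and 110 CPM with IFNL3 and 45.8 and 49.9 CPM in untreated cells. TAP1 rose with both ligands (log2 2.82 ± 0.12 with IFNw and 1.23 ± 0.12 with IFNL3) and was higher with IFNw by 1.59 ± 0.12. Its partner TAP2 had 45.4 and 46.9 CPM and 61.9 and 56.1 CPM and did not pass the test (interval -0.84 to 0.14). In the list 8 of 14 were higher and 1 lower, beside 25.9% and 27.2% of all genes tested. The list's median was 0.99 (0.79 with the length offset, 9 higher). The call of ERAP1, higher at 0.55, ended without IFNw replicate 1 or IFNL3 replicate 2 (adjusted p 0.063 and 0.12), and that of CANX, the lower gene at -0.61, without either IFNw library or IFNL3 replicate 1 (adjusted p 0.058 to 0.083).

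Genes of the IRF1, GBP, APOL and chemokine list were scarce, with 9 of 20 tested. With the length offset 3 were higher and 1 lower. Without it 4 were higher and none lower, beside 25.9% and 27.2% of all genes tested. Among the 4, the call of LAP3 (0.34) ended on leaving out any of the 4 libraries (adjusted p 0.088 to 0.22). GBP1, a GTPase that attacks intracellular pathogens, had 5.71 and 3.55 CPM with IFNw and 0.447 and 1.17 CPM with IFNL3 (log2 fold change 2.50 ± 0.66), and its call ended without IFNL3 replicate 1 (adjusted p 0.06). APOL1, which forms pores in parasite membranes, had 2.92 and 2.23 CPM and 0.268 and 0.628 CPM (2.49 ± 0.59). CXCL10 had 1.25 and 1.31 CPM with IFNw and 0.626 and 0.359 CPM with IFNL3 and did not pass the test. Of 7 interferon-linked cell death genes, 3 were higher and 1 lower, again beside 25.9% and 27.2% of all genes tested. The call of XAF1, higher at 1.39, ended without IFNL3 replicate 1 (log2 fold change 0.98). BAK1, which permeabilises the mitochondrial membrane, had 69.3 and 63.8 CPM and 31.7 and 32.1 CPM (1.06 ± 0.14), and the kinase RIPK1 had 24.2 and 27.5 CPM and 42.8 and 45.1 CPM (-0.77 ± 0.16). No interferon gene of 10 was tested, and none exceeded 2 reads over the IFNw libraries or 5 reads over the IFNL3 libraries.

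**Figure D2:**
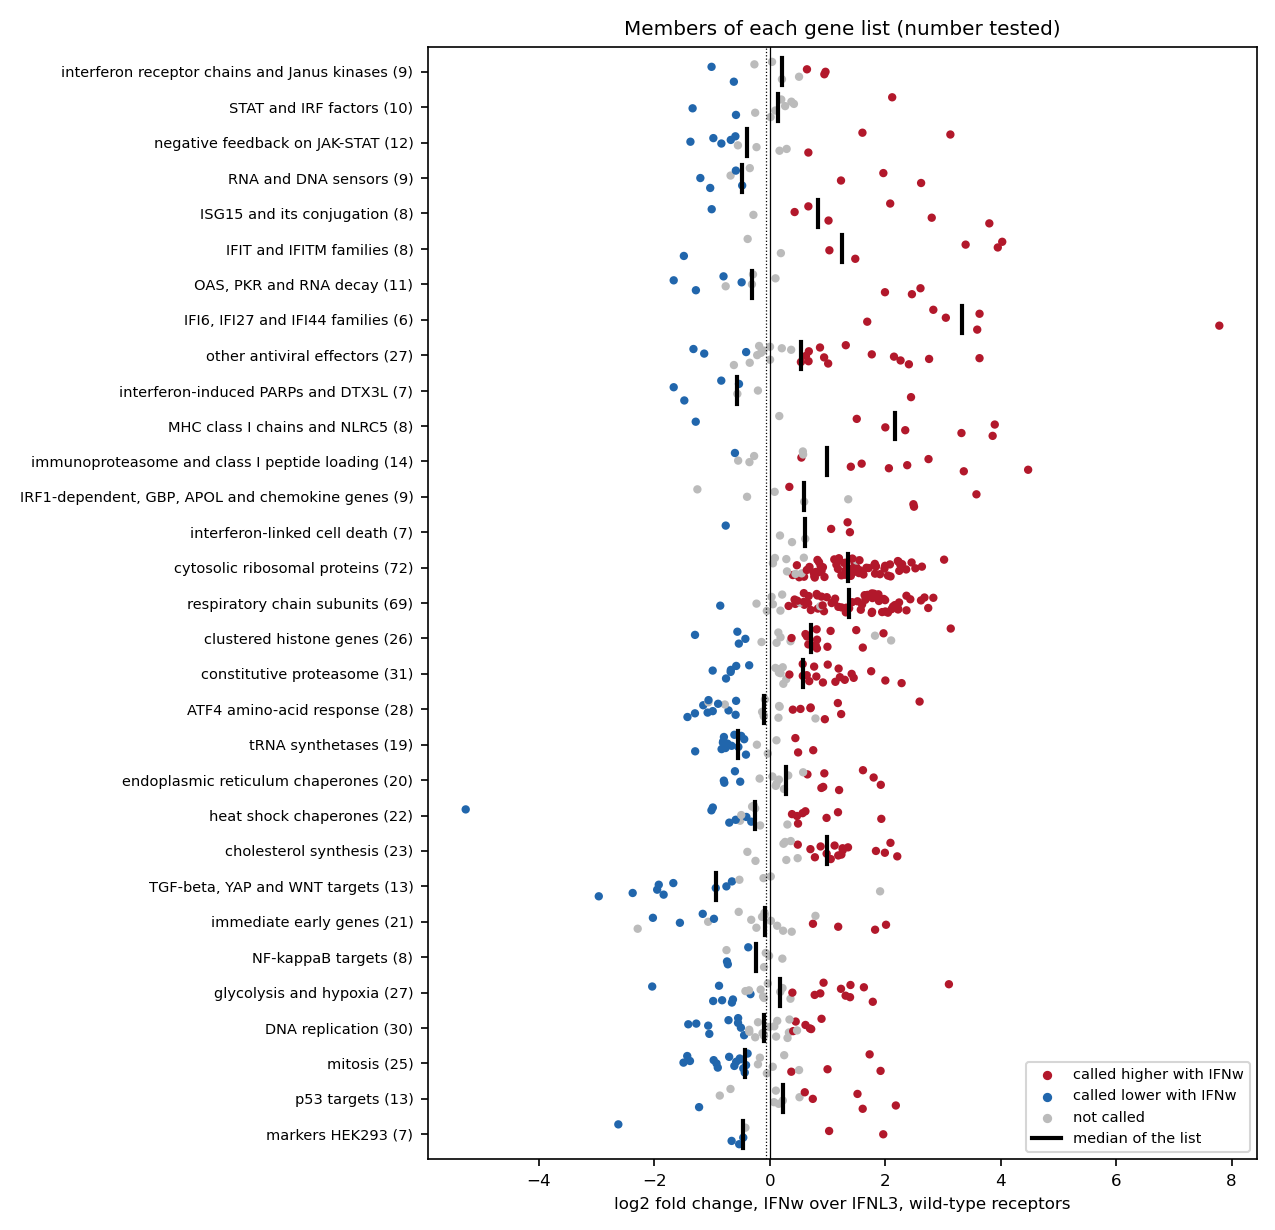
Log2 fold change, IFNw over IFNL3, of each tested member of 31 gene lists (number tested in brackets), with colour for genes called higher, lower or not called and a bar for the list's median; the dotted line is the median of all genes tested. The IFI6, IFI27 and IFI44 list (median 3.32) and the class I list (2.17) lie farthest to the right, and the TGF-beta, YAP and WNT list (-0.94) farthest to the left.

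The log2 fold change moved with transcript length. Across all 11989 tested genes with a length, rho between length and the log2 fold change was -0.47 (-0.04 with the length offset), and across 131 interferon-response genes it was -0.68 (-0.48 with the offset). Both are descriptions across genes of the same 4 libraries. Of 19 interferon-response genes with transcripts shorter than 1500 bases, 17 were higher and none lower (median log2 fold change 3.13, or 2.35 with the offset). Of 62 longer than 3000 bases, 17 were higher and 25 lower (median -0.37, or -0.06 with the offset, 19 higher and 17 lower). Among the 2401 genes with the shortest transcripts the median was 0.78 with 57.6% higher, and among the 2397 with the longest it was -0.66 with 54.4% lower. Whether length itself, the counted stretch of each gene or another property moves with the ligand was not tested.

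**Figure D3:**
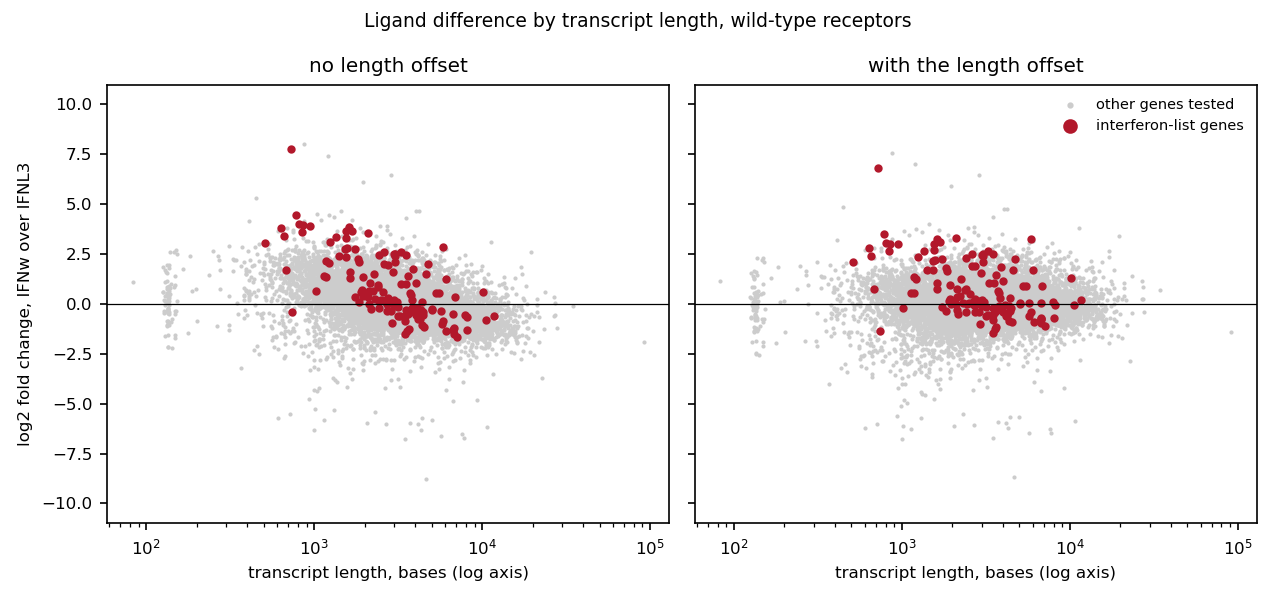
Log2 fold change, IFNw over IFNL3, against transcript length (log axis) for all tested genes in grey and the interferon-response genes in red, without the length offset on the left and with it on the right. The downward slope over all genes (rho -0.47) is nearly flat with the offset (-0.04), while the interferon-response genes keep a rho of -0.48.

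Outside the interferon response, cytosolic ribosomal proteins and respiratory chain subunits were higher with IFNw as groups. Between the ligands 25.9% of all genes tested were higher and 27.2% lower with IFNw. Of 72 ribosomal protein genes, 64 were higher and none lower (median log2 fold change 1.35). With the length offset 44 were higher and 4 lower (median 0.66). RPS27, of the small subunit, had 3660 and 3363 CPM with IFNw, 442 and 425 CPM with IFNL3 and 1450 and 1268 CPM in untreated cells (3.02 ± 0.17 between the ligands). Of 69 respiratory chain genes 60 were higher and 1 lower (median 1.37, or 0.74 with the offset), led by COX7B, a subunit of cytochrome c oxidase, with 4698 and 4131 CPM and 662 and 578 CPM (2.83 ± 0.20). Against untreated cells, 34 ribosomal protein genes rose and 2 fell with IFNw, and 2 rose and 59 fell with IFNL3. Over all genes tested 16.6% rose and 14.8% fell with IFNw, and 18.7% rose and 21.1% fell with IFNL3. Ribosomal protein transcripts are short, with a median of 1010.5 bases in the list and 3235 bases over all genes tested. The histone list had a median of 0.71, and of -0.20 with the offset.

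Cholesterol synthesis genes were higher with IFNw in both fits. Of 23 genes 16 were higher and none lower (median 0.98), beside 25.9% and 27.2% of all genes tested. With the length offset 17 were higher (median 0.66), beside 21.9% of all genes tested. IDI1, which isomerises isopentenyl diphosphate, had 434 and 421 CPM with IFNw and 94.6 and 90.6 CPM with IFNL3, against 116 and 107 CPM in untreated cells (2.21 ± 0.11 between the ligands). INSIG1, the sterol-regulated anchor of SREBP, had 47.7 and 42.7 CPM and 10.3 and 10.9 CPM (2.09 ± 0.19), against 20.9 and 21.9 CPM in untreated cells. HMGCS1, of the early steps, did not pass the test (interval -0.55 to 0.06).

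Of all genes tested 27.2% were lower and 25.9% higher with IFNw. In the list of TGF-beta, YAP and WNT targets, 9 of 13 were lower with IFNw and none higher. Its median was -0.94 (-1.57 with the length offset, 8 lower), and its values ran from -2.96 to 1.91. The WNT targets NKD1, AXIN2 and DKK1 were not called, nor was AXL. The call of ID3 (-0.75) ended without IFNw replicate 1 (-0.53) or IFNL3 replicate 2 (-0.6). CYR61, a matrix protein induced by YAP, had 28.1 and 30.1 CPM with IFNw, 233 and 222 CPM with IFNL3 and 19.1 and 19.6 CPM in untreated cells. It was 7.81-fold higher with IFNL3 (log2 -2.96 ± 0.14, adjusted p = 9.5e-11), and CTGF, its relative, had 5.29 and 4.73 CPM and 14.3 and 21.6 CPM (-1.84 ± 0.25). ID1, a helix-loop-helix inhibitor induced by BMP, had 38.4 and 35.3 CPM with IFNw and 148 and 138 CPM with IFNL3 (-1.95 ± 0.16). SMAD7 and SMAD6, feedback inhibitors of the TGF-beta and BMP pathways, were lower too (-1.93 ± 0.24 and -1.67 ± 0.23). For CYR61, ID1, SMAD7 and SMAD6 the IFNw libraries were nearer to the untreated libraries than the IFNL3 libraries were. Aminoacyl-tRNA synthetases were lower in 13 of 19 genes (median -0.55), for example NARS with 83.1 and 83 CPM and 164 and 127 CPM (-0.81 ± 0.15).

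Cell cycle and stress lists were mixed. Mitosis genes were lower in 15 of 25 and higher in 4, beside 27.2% and 25.9% of all genes tested. Their median was -0.44, and -0.43 with the offset. MKI67 had 50.1 and 57.1 CPM with IFNw and 141 and 161 CPM with IFNL3 (-1.5 ± 0.16), whereas CDK1, the kinase that drives entry into mitosis, had 1222 and 1157 CPM and 313 and 317 CPM (1.92 ± 0.16). Of 28 ATF4 amino-acid response genes 8 were higher and 10 lower, shares near those of all genes tested (25.9% and 27.2%). Against untreated cells 24 of the 28 fell with IFNw and 23 with IFNL3, in comparisons that share the untreated libraries. Of all genes tested, 14.8% fell with IFNw and 21.1% with IFNL3. ASNS, asparagine synthetase, had 104 and 106 CPM with IFNw, 117 and 108 CPM with IFNL3 and 411 and 383 CPM in untreated cells. HSPA5, the main chaperone of the endoplasmic reticulum, had 727 and 666 CPM and 327 and 279 CPM (1.20 ± 0.13). Its list had 8 of 20 higher and 4 lower, beside 25.9% and 27.2% of all genes tested. Hypoxia-linked genes went both ways, with BNIP3 at 346 and 349 CPM and 116 and 109 CPM (1.63 ± 0.14) and adrenomedullin (ADM) at 11.4 and 13 CPM and 49 and 51.5 CPM (-2.04 ± 0.20). Among p53 targets BBC3, which encodes the death protein PUMA, had 18.5 and 16.2 CPM with IFNw, 3.85 and 3.77 CPM with IFNL3 and 25.2 and 21.4 CPM in untreated cells (2.18 ± 0.26).

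Several of the genes with the largest fold changes belong to none of these lists. CRYAB, given below, is of the heat shock chaperone list. There 8 of 22 genes were higher and 7 lower, beside 25.9% and 27.2% of all genes tested. RARRES3, a growth inhibitor induced by retinoids, had 172 and 178 CPM with IFNw, 14.4 and 14.3 CPM with IFNL3 and 13.9 and 17.1 CPM in untreated cells (3.61 ± 0.14). CARD16, an inhibitor of caspase-1, had 12 and 13.3 CPM and 0.894 and 0.897 CPM (3.80 ± 0.34). SULT2B1, a sterol sulphotransferase, had 14.8 and 10.8 CPM with IFNw, 0.626 and 0.359 CPM with IFNL3 and 6.62 and 5.39 CPM in untreated cells (4.66 ± 0.35). It rose with IFNw (log2 1.09 ± 0.25) and fell with IFNL3 by 3.57 on the log2 scale against untreated cells. The lowest log2 fold change among the genes that the naming rule took was that of IL7R, the interleukin-7 receptor, with no read in either IFNw library, 5.81 and 6.37 CPM with IFNL3 and 1 read in untreated cells. Its level with IFNL3 was at least 30.1-fold higher, taking 3 reads over the IFNw group as the limit that a count of 0 allows. PI15, a protease inhibitor, had 0.835 and 0.657 CPM with IFNw and 22.4 and 21.9 CPM with IFNL3 (-4.87 ± 0.31), and the small heat shock protein CRYAB had 0 and 0.657 CPM and 12.1 and 15 CPM (-5.27 ± 0.60, or -9.95 without IFNw replicate 2, which held its only reads with IFNw, a fitted value that depends on the prior count and is no bound). NEAT1, the long RNA scaffold of paraspeckles, had 42 and 46.2 CPM with IFNw, 510 and 635 CPM with IFNL3 and 95.3 and 113 CPM in untreated cells (-3.70 ± 0.18). The matrix proteins THBS1 and TNC had 1.53 and 1.45 CPM and 0.139 and 0.657 CPM with IFNw, against 13.5 and 16.2 CPM and 8.05 and 4.67 CPM with IFNL3. CDH6, a cadherin of kidney epithelium, had 43.2 and 56 CPM and 339 and 435 CPM (-2.96 ± 0.17). The kidney transcription factor PAX2 had 0.974 and 0.92 CPM with IFNw and 5.54 and 6.28 CPM with IFNL3 (-2.63 ± 0.43), and KRT8 had 25.3 and 24 CPM and 6.17 and 6.46 CPM (1.96 ± 0.20), both markers of the line itself.

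With optimized receptors fewer genes separated the same ligands. IFNw and IFNL3 libraries of that genotype differed at 1459 genes higher (11.5%) and 963 lower (7.58%). Of the 134 interferon-response genes 34 were higher and 10 lower there (median log2 fold change 0.18), against 62 and 26 (median 0.40) with wild-type receptors. With the length offset 21 were higher and 2 lower with optimized receptors (median 0.13), against 60 and 20 (median 0.24) with wild-type receptors. The difference between the genotypes was itself tested, as the wild-type log2 fold change minus the optimized one. It was called positive for 1262 genes (9.93%) and negative for 815 (6.42%), and for 39 and 11 of the 134 interferon-response genes. With the length offset 798 (6.28%) and 595 (4.68%) were called over all genes, and 36 and 12 of the 134. Length trends entered here too, since IFNL3 libraries of optimized cells had a rho of 0.0939 and 0.0531 and their IFNw libraries -0.444 and -0.464.

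In optimized cells IFI27 had 3179 and 3278 CPM with IFNw and 1057 and 1108 CPM with IFNL3, so that its ligand difference was 1.58 ± 0.16 there and the difference between genotypes 6.21 ± 0.24 (adjusted p = 4e-11). IFITM3 had 641 and 718 CPM and 450 and 514 CPM (3.53 ± 0.22 between genotypes), ISG15 7266 and 7770 CPM and 4375 and 4370 CPM (3.02 ± 0.18), and IFI6 8270 and 7981 CPM and 5157 and 5270 CPM (2.95 ± 0.16). In each of these 4 genes the IFNL3 libraries of optimized cells lay above those of wild-type cells. The ratio of mean CPM, optimized over wild-type, was 64.1 for IFI27, 10 for IFITM3, 7.84 for ISG15 and 7.91 for IFI6 with IFNL3. With IFNw those ratios were 0.865, 0.865, 0.966 and 1.02. Class I genes followed, with B2M at 5975 and 6175 CPM and 2388 and 2376 CPM (2.55 ± 0.30) and PSMB9 at 296 and 351 CPM and 114 and 134 CPM (3.09 ± 0.24). OAS2 was called in opposite directions, higher with IFNw in wild-type cells and lower in optimized cells (-0.60 ± 0.17), where it had 150 and 140 CPM with IFNw and 221 and 218 CPM with IFNL3, though in optimized cells it was not called with the length offset (-0.44, adjusted p = 0.12). For 3 genes lower with IFNw in wild-type cells the difference between genotypes was negative. IRF1 had 10.6 and 8.73 CPM and 7.94 and 7.81 CPM in optimized cells (-1.63 ± 0.28 between genotypes, adjusted p = 0.00075), NLRC5 had 36.7 and 30.7 CPM and 27 and 25.9 CPM (-1.63 ± 0.24), and IFIT2 had 18.9 and 26.3 CPM and 20.7 and 21.3 CPM (-1.60 ± 0.29). CYR61 had 29.7 and 30.9 CPM with IFNw and 31.8 and 31.4 CPM with IFNL3 in optimized cells (-2.91 ± 0.20). Over 19 genes picked for a called difference between genotypes, the ratio of mean CPM, optimized over wild-type, was 0.777 to 1.33 with IFNw and 0.0429 to 64.1 with IFNL3, a description since the choice used these levels. IFIT3, not called between ligands in wild-type cells, showed no called difference between genotypes (-0.06 ± 0.18).

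**Figure D4:**
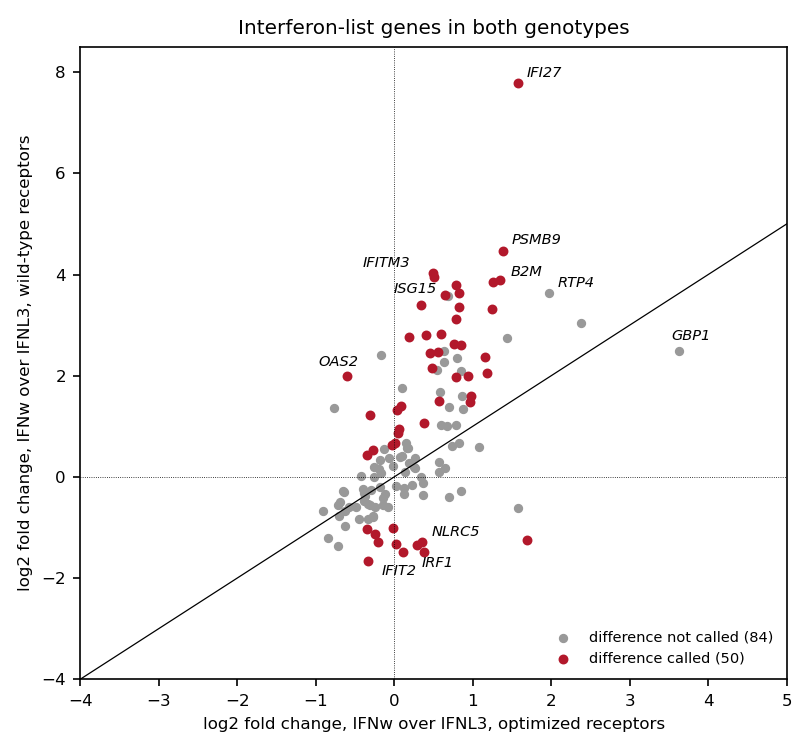
Log2 fold change, IFNw over IFNL3, of the 134 interferon-response genes with wild-type receptors (vertical axis) and optimized receptors (horizontal axis), with the diagonal as the line of equal values and red for the 50 genes whose difference between genotypes was called. IFI27 stands at 7.79 and 1.58, and the red points above the diagonal (39) outnumber those below it (11).

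With H11, the IFNL3 variant labelled as high-affinity, in place of IFNL3, 3259 genes were higher (25.7%) and 3373 lower (26.6%) with IFNw in wild-type cells, together 52.2%. This comparison shares the IFNw libraries with the one above, so only its values are given. IFI27 had 13.5 and 18.4 CPM with H11, ISG15 544 and 627 CPM, B2M 415 and 426 CPM and IFIT2 60.1 and 62 CPM, and IFNw exceeded H11 by 7.87 ± 0.21, 3.73 ± 0.14 and 3.84 ± 0.24 on the log2 scale in the first 3 of these genes. The IFNw minus H11 difference of IFIT2 was -1.5 ± 0.21.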

How the data were processed

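RNA was counted in 16 HEK293 libraries, made with an Ion Torrent 540 or 550 kit per the labels' protocols. The deposited files hold whole-number read counts per target, not normalized, per the file headers. The submitters' processing notes name hg19 as the build. The sources used here do not give the aligner, counter, strand use or target positions. Counts of antisense, overlapping and near-identical genes are therefore uncertain, and the transcript lengths used need not be the counted stretches. After 10 spike-in targets were left out, 20802 remained.

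All 16 libraries entered 1 fit with a coefficient per group (edgeR 4.0.16 in R 4.3.3, filterByExpr, TMM factors, quasi-likelihood test, Benjamini-Hochberg adjustment over 12704 genes; biological coefficient of variation 13.3%). Standard errors (±) are the log2 fold change over the root of the test's F. The length offset is a natural spline with 5 degrees of freedom on log transcript length (GENCODE annotation, 11989 tested genes matched). Replicates differed by more than sampling noise in each group (chi-square per degree of freedom 6.31 to 24.6). Alternatives are given at the end. The fits were also run on simulated counts without a length trend, a run that cannot speak to the trend seen here. Intervals and limits for 0 reads cover counting error or replicate spread only, since reads were not collapsed by molecule. Promoters came from RefSeq (GRCh38.p14) and matched 100 of 134 interferon-response genes.

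Named genes were first the 15 called genes with the largest fold change in each direction. These had at least 5 CPM in a group, libraries not overlapping and a call in the same direction with the length offset. Up to 8 called and 4 uncalled genes of each list were added, and 10 in each direction for the difference between genotypes. A set panel of interferon-response genes could also be named, as could any other member of the interferon and marker lists. The members and the gene lists (36 lists, 699 of 705 entries matched) were chosen with earlier results of these data known. A few genes chosen in this way are left out of the text.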

Additional observations from a re-analysis of the deposited data

Results flagged for a closer look

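The ligand difference (IFNw minus IFNL3) itself differed between wild-type and optimized receptors for 2077 genes by the interaction term of edgeR's fit (Benjamini-Hochberg adjusted p under 0.05). Among interferon-response genes it was larger with wild-type receptors, on the log2 scale, by 6.21 for IFI27, 3.53 for IFITM3, 3.44 for IFITM1, 3.02 for ISG15, 2.95 for IFI6, 3.09 for PSMB9, 2.55 for B2M, 2.59 for OAS2 and 1.91 for OAS1. It was negative for IFIT2 (-1.60), IRF1 (-1.63), NLRC5 (-1.63) and ZC3HAV1 (-1.33). Outside that response it was 3.83 for SULT2B1 and 3.50 for ANKRD37, and -2.91 for CYR61, -2.76 for ID1, -4.89 for PI15 and -3.67 for the chemokine CXCL14. These 19 genes were picked after earlier results of the data were known. Adjusted p for them lay between 4e-11 (IFI27) and 0.0016 (ZC3HAV1). Groups of 2 libraries were too small for a search for outlying libraries.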

How the results depend on the processing

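The count of 6748 genes called between IFNw and IFNL3 stayed within 1.5 times under DESeq2 1.42.0, DESeq2's size factors, no low-count filter, the compared libraries alone, the 8 wild-type libraries and the length offset. A 2-fold minimum left 3376 genes (1872 higher, 1504 lower), and 1136 (672 and 464) for the difference between genotypes, where the length offset left 798 positive genes. Leaving out each library in turn gave 5300 to 5513 calls (2708 to 2836 higher, 2464 to 2805 lower), and 1333 to 1524 (848 to 956 positive, 462 to 568 negative) between genotypes, with fewer samples in each fit.

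With the length offset, with or without the block, medians turned for STAT and IRF factors (-0.01), OAS, PKR and RNA decay (0.01) and histones (-0.2). Values turned for IRF9 (-0.37), MAVS (0.18), ADAR (0.02), BST2 (-0.21), PARP14 (0.08), RPLP2 (-0.87), RPS13 (-0.93) and NDUFV1 (-0.54). Which of the 2 fits is nearer to the ligand's part was not tested. The median of immediate early genes (-0.09) was 0.01 without IFNw replicate 1 and 0.05 without IFNL3 replicate 2, within a range of -0.19 to 0.05 on leaving out each library, and the cause was not tested. Of 174 called genes checked singly, 171 kept their call with DESeq2, 161 with the offset and 155 to 162 without 1 library.

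Same-numbered libraries deviated together only weakly (correlation 0.184 between IFNw and IFNL3, 0.0846 to 0.212 over pairs of all 8 groups, with 2 replicates each), so the numbers were not taken as pairs. With replicate number as a block 7253 genes were called, and 2711 between genotypes, all 174 single calls were kept, and 5 uncalled genes were gained (IRF7, HERC5, EIF2AK2, PDIA3 and CYP51A1, adjusted p 0.00094 to 0.046). Other settings gained 0 to 9 such genes each.

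With 2 libraries per group, small differences were not detectable: of 46 interferon-response genes that were not called, 27 had a 95% interval within 2-fold. Genes near 1 CPM, such as MX1, carry few reads.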
